A study of Mus musculus with 8 samples.

Results

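The transcripts of 10 granulocyte and basophil effector proteins were followed across 8 RNA-seq libraries of mouse splenic B cells. They are Mcpt8, Prss34 and Prg2 of basophils and eosinophils, and Elane, Mpo, Ngp, Camp, Ltf, S100a8 and S100a9 of neutrophils. They were taken by symbol from a table of normalized counts with 23302 entries, and all 10 were found and had a mean of at least 10 normalized counts. The set was chosen with the measured values in view, so differences of these 10 genes are given as descriptions with a standard error and no test. The name granule genes suits 8 of the 10: S100a8 and S100a9 encode cytosolic calcium-binding proteins and are kept under the same heading.

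Granulocytes store their effector proteins in granules that are filled in sequence while the cell matures in the marrow or spleen. Neutrophil precursors first make primary granules with proteases and myeloperoxidase, later secondary granules with lactoferrin and cathelicidin, and mature neutrophils carry much S100A8 and S100A9 in the cytosol. Basophils and eosinophils form separate lineages with their own proteases and basic proteins, and none of these genes belongs to the B cell program.

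The study asked how a pancreatic tumor changes naive B cells and whether B cell Ebi3 matters for this. Ebi3 encodes a subunit of the cytokines IL-35 and IL-27. B cells came from spleens of C57BL/6 mice in 4 groups of 2 libraries: EBi3KO tumor and EBi3KO nontumor (genotype label B-EBi3-), and WT tumor and WT nontumor. The nontumor label itself reads WT under tumor status and was taken as nontumor. The labels do not say how the deletion was made, which tumor was used, how old the mice were or how pure the sort was. Nor do they say that the libraries of 1 group stem from different mice, so errors measure only the spread between these libraries. Standard errors are those of limma, which takes the spread from all 4 groups together and moderates it over genes. A gene therefore has the same standard error in each comparison of 2 groups. Libraries held 21291892 to 28297319 reads.

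Several library features bear on the comparisons. Ebi3 stood at 8.70 and 11.0 normalized counts in EBi3KO tumor libraries, at 12.8 and 11.5 in EBi3KO nontumor libraries, at 201 and 164 in WT tumor libraries and at 8.94 and 11.0 in WT nontumor libraries, so it separates the genotypes only with a tumor. Both WT tumor libraries carried Xist at 19758 and 26191 normalized counts and no reads of Eif2s3y, Uty or Kdm5d, while the other 6 held Xist at 5.59 to 18.3. The same pair also has another title prefix. Tumor, sex and whatever the prefix stands for therefore cannot be told apart in any comparison that uses WT tumor libraries, and no value without that pair exists for them. The comparison of EBi3KO tumor with EBi3KO nontumor libraries and that of EBi3KO with WT nontumor libraries are free of this. The 2 EBi3KO tumor libraries differed by little more than sampling noise (chi-square per degree of freedom 2.01, against 13.1 to 20.3 in the other pairs), so counts of calls for tumor in EBi3KO, and the counts over all related genes, are also given with the pair averaged as 1 sample.

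With a tumor, all 10 genes stood lower in WT libraries, with log2 differences of -4.76 to -3.40 (median -4.11, against 0.01 over the 13011 genes tested). In EBi3KO libraries the same genes split by role. The 3 basophil and eosinophil genes were near their nontumor level (0.17 to 0.58), the primary granule genes stood at -0.86 and -1.10, the secondary granule genes at -2.85 to -2.37 and the S100 genes at -2.89 and -2.98. Log2 differences throughout are between group means of log2(normalized count + 1). In the WT comparison both tumor libraries lay below both nontumor libraries for 10 of 10 genes. In that comparison 40.1% of all tested genes were called lower and 39.6% higher at a limma adjusted p below 0.05. In the EBi3KO comparison 7 of 10 lay below, 1 lay above and 2 overlapped, where 18.5% of all tested genes were called lower and 14.1% higher. Between genotypes with a tumor, both EBi3KO libraries lay above both WT libraries for 10 of 10 genes, where 31.9% of all tested genes were called higher and 28.6% lower. Those shares are limma calls, another measure than the order of libraries, whose share over all tested genes was not computed. Since the genes were chosen on these contrasts, nothing is read from the counts. In bulk libraries fewer granulocytes and less RNA per granulocyte cannot be told apart.

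**Figure D1:**
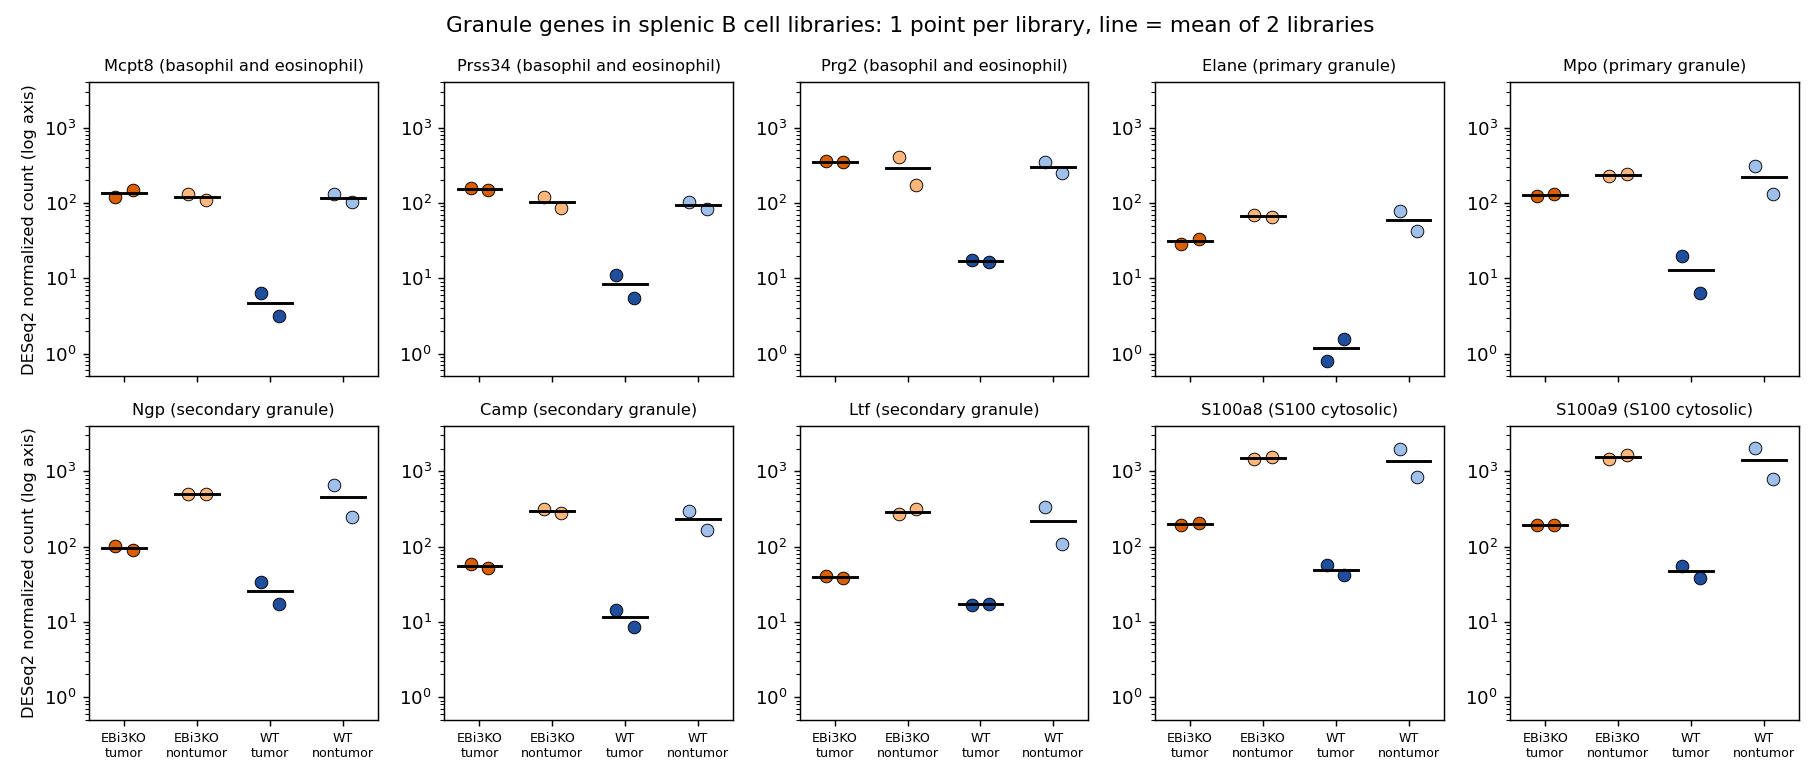
Normalized counts of the 10 genes in each of the 8 libraries, on a log axis, 1 point per library with a line at the mean of the 2 libraries of a group. WT tumor points are the lowest of each panel, while EBi3KO tumor points lie near the nontumor points for Mcpt8, Prss34 and Prg2 and well below them for S100a8 and S100a9.

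The start regions of 5 of the genes are shown, chosen to span the roles that parted in EBi3KO tumor libraries. Each is the 250 bases upstream of the start in RefSeq's mouse assembly GRCm38.p6 (mm10), read 5′ to 3′ along the gene's own strand. The RefSeq promoter table had entries for 9 of the 10 genes, and Prg2 had none. Capitals mark matches, on either strand, to letters of motifs of myeloid transcription factors and of the TATA box. The letters searched for C/EBP were TTGCNNAA. For GATA factors they were AGATAA. For PU.1, a myeloid and B cell factor, they were GAGGAAG. For RUNX factors they were TGTGGT. The TATA box was searched as TATAAA. Prss34 lies at chr17:25298144-25298393 on the plus strand, Elane at chr10:79886062-79886311 on the plus strand, Ngp at chr9:110419558-110419807 on the plus strand, Ltf at chr9:111019042-111019291 on the plus strand and S100a9 at chr3:90695722-90695971 on the minus strand.
Prss34: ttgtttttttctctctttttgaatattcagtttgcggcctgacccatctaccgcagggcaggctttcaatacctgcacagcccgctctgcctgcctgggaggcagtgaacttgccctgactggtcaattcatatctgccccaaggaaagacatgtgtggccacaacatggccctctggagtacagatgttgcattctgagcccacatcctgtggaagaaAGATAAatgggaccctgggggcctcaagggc
Elane: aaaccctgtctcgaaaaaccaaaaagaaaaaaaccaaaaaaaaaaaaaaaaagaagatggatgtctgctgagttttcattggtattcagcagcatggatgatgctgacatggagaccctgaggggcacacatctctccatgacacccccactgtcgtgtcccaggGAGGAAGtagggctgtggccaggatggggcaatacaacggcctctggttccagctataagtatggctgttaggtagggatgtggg
Ngp: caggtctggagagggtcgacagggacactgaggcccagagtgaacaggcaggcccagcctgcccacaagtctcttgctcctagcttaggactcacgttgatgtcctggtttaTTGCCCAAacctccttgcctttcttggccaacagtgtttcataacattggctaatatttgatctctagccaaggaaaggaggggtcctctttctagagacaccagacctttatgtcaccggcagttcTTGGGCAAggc
Ltf: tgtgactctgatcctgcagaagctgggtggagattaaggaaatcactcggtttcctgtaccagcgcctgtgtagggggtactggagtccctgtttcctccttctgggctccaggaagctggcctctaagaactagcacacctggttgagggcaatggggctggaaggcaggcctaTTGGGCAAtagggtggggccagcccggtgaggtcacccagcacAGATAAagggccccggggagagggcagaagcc
S100a9: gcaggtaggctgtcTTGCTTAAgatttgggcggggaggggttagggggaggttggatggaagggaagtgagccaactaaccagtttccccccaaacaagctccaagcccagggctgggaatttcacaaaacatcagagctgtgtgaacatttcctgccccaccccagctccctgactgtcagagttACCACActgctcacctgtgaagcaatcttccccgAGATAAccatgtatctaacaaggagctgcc
The C/EBP letters occurred in 3 of the 9 windows (S100a9, Ngp and Ltf) and in 9.56% of 32851 promoters of the same length. The PU.1 letters occurred in S100a8, Elane and Mpo, against 10.6% of all promoters. The GATA letters occurred in S100a9, Ltf and Prss34, against 9.99%, and in these 3 genes they ended 25, 27 and 26 bases before the start. S100a8 has the TATA box letters ending 25 bases before its start (12.4% of all promoters hold them). RUNX letters occurred in S100a9 and Mcpt8 (14.1% of all promoters), and Camp matched none of the motifs. The capitals of these sequences overlap at no point. S100a8 and S100a9 lie 22.6 kb apart on chromosome 3, and Camp, Ngp and Ltf lie along 1195 kb of chromosome 9 between their outer genes. A match is a run of letters and shows no binding.

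Among the basophil and eosinophil genes, Mcpt8 encodes a serine protease stored in mouse basophils. It had 122 and 149 normalized counts in EBi3KO tumor libraries, 133 and 108 in EBi3KO nontumor libraries, 6.35 and 3.15 in WT tumor libraries and 129.7 and 103 in WT nontumor libraries. The WT tumor pair stood alone and the 6 other libraries overlapped. The WT tumor mean was 24.5-fold lower than the WT nontumor mean (log2 difference -4.40 ± 0.30, SE, n = 2 libraries each), with a 95% counting interval of 13.9- to 48.9-fold on 12 against 191 reads. Counting intervals here cover counting error only.

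Prss34, a basophil protease whose protein is known as mMCP-11, had 158 and 149 normalized counts in EBi3KO tumor libraries and 121 and 86.6 in EBi3KO nontumor libraries. It is the one gene of the 10 whose EBi3KO tumor libraries both lay above the nontumor pair, at 0.58 ± 0.32. In WT libraries it had 11.1 and 5.51 with a tumor and 104 and 82.3 without, a difference of -3.40 ± 0.32.

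Prg2 encodes the major basic protein of eosinophil granules and is also made by basophils. It had 364 and 346 normalized counts in EBi3KO tumor libraries and 404 and 174 in EBi3KO nontumor libraries. That nontumor pair differed 2.31-fold and enclosed the tumor pair, and the difference of 0.42 ± 0.34 turned to -0.19 without EBi3KO nontumor library 2. In WT libraries Prg2 had 17.5 and 16.5 with a tumor and 347 and 248 without, 17.5-fold lower with a tumor.

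For the primary granule, Elane encodes neutrophil elastase. It had 28.7 and 33.0 normalized counts in EBi3KO tumor libraries and 69.0 and 64.9 in EBi3KO nontumor libraries, 46.1% of the nontumor mean. In WT tumor libraries it rested on 1 and 2 reads (0.794 and 1.57 normalized counts), against 77.1 and 42.5 normalized counts in WT nontumor libraries. The read ratio there was 52.0-fold lower with a 95% counting interval of 17.3- to 256-fold.

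Mpo, the myeloperoxidase that makes hypochlorous acid in phagosomes, had 124 and 132 normalized counts in EBi3KO tumor libraries and 229 and 239 in EBi3KO nontumor libraries, 54.8% of the nontumor mean. WT tumor libraries held 19.9 and 6.29, against 307 and 130.3 in WT nontumor libraries. Both WT pairs spread widely, 3.16-fold with a tumor and 2.36-fold without, yet they did not overlap. The lower WT nontumor value lay between the EBi3KO tumor values.

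Among the secondary granule genes, Ngp encodes neutrophilic granule protein, a cystatin-related protein of mouse. It had 103 and 90.7 normalized counts in EBi3KO tumor libraries and 505 and 504 in EBi3KO nontumor libraries, 5.22-fold lower with a tumor (-2.37 ± 0.42). WT tumor libraries held 33.4 and 17.3, against 661 and 249.7 in WT nontumor libraries. All 4 tumor libraries lay below all 4 nontumor libraries, with the WT pair lowest.

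Camp, the precursor of the antimicrobial peptide cathelicidin, had 59.2 and 52.2 normalized counts in EBi3KO tumor libraries and 318 and 281 in EBi3KO nontumor libraries, 5.38-fold lower with a tumor (-2.41 ± 0.31). WT tumor libraries held 14.3 and 8.65, against 297 and 163 in WT nontumor libraries. The order of the groups was as for Ngp.

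Ltf, the iron-binding lactoferrin, had 40.0 and 38.5 normalized counts in EBi3KO tumor libraries and 269.6 and 311 in EBi3KO nontumor libraries, 7.39-fold lower with a tumor (-2.85 ± 0.43). WT tumor libraries held 16.7 and 17.3, against 334 and 107 in WT nontumor libraries (-3.40 ± 0.43). Of the 10 genes it had the smallest gap between tumor libraries of the 2 genotypes: the EBi3KO mean was 2.31 times the WT mean, where that ratio was 28.6 for Mcpt8. Its tumor difference in EBi3KO minus that in WT was 0.55 ± 0.61, smaller than its standard error.

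S100a8 and S100a9 encode the subunits of calprotectin, which binds calcium and zinc and is released by activated neutrophils and monocytes. S100a8 had 194 and 207 normalized counts in EBi3KO tumor libraries and 1462 and 1529 in EBi3KO nontumor libraries, 7.46-fold lower with a tumor (-2.89 ± 0.33). WT tumor libraries held 56.4 and 42.5, against 1944 and 826 in WT nontumor libraries, 28.0-fold lower. S100a9 followed closely, with 191 and 194 in EBi3KO tumor libraries, 1439 and 1622 in EBi3KO nontumor libraries, 55.6 and 37.8 in WT tumor libraries and 2028 and 794 in WT nontumor libraries. The ratio of S100a8 to S100a9 stayed between 0.943 and 1.13 in all 8 libraries.

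**Figure D2:**
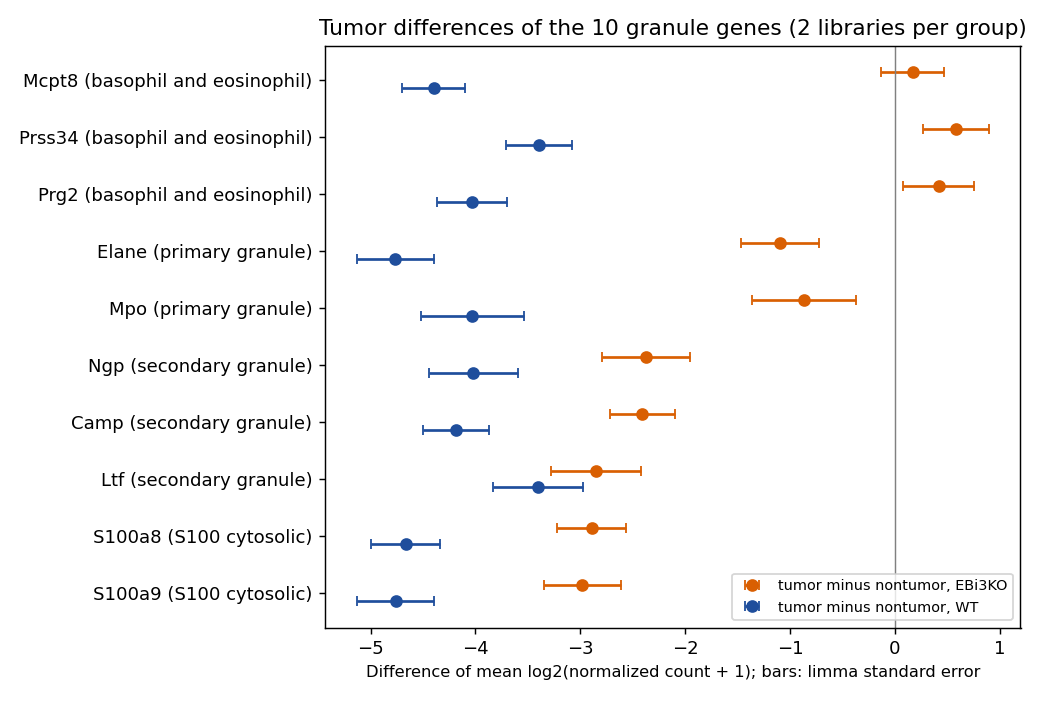
Tumor minus nontumor difference of each of the 10 genes in EBi3KO (orange) and WT (blue), as difference of mean log2(normalized count + 1), with bars for the limma standard error and 2 libraries per group. WT values lie between -4.76 and -3.40 for all roles, while EBi3KO values run from 0.58 for Prss34 to -2.98 for S100a9.

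The tumor difference in EBi3KO minus that in WT ran from 0.55 for Ltf to 4.57 ± 0.43 for Mcpt8. It was 3.98 to 4.57 for the basophil and eosinophil genes, 3.16 and 3.67 for the primary granule genes, and 0.55 to 1.78 for the secondary granule and S100 genes. Ratios within a library show the same split without any scaling between libraries. The sum of Ngp, Camp and Ltf over that of Elane and Mpo was 1.32 and 1.10 in EBi3KO tumor libraries, 3.67 and 3.60 in EBi3KO nontumor libraries, 3.12 and 5.50 in WT tumor libraries and 3.36 and 3.01 in WT nontumor libraries. The EBi3KO tumor pair was below all 6 others. S100a8 plus S100a9 over the same primary granule sum was 2.52 and 2.43 in EBi3KO tumor libraries, 9.74 and 10.4 in EBi3KO nontumor libraries, 5.42 and 10.2 in WT tumor libraries and 10.3 and 9.37 in WT nontumor libraries. WT tumor ratios rest on few primary granule reads, 26 and 10 in the 2 libraries.

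The 7 neutrophil genes summed to 1.15 and 1.16 times the 3 basophil and eosinophil genes in EBi3KO tumor libraries. This ratio was 6.52 and 12.3 in EBi3KO nontumor libraries, 5.64 and 5.22 in WT tumor libraries and 9.74 and 5.34 in WT nontumor libraries. It was therefore lowest in both EBi3KO tumor libraries, and WT tumor libraries, with all 10 genes low, stood within or just below the nontumor range. Together the 10 genes took 0.00562% and 0.00566% of reads in EBi3KO tumor libraries, 0.0182% and 0.0173% in EBi3KO nontumor libraries, 0.00107% and 0.000732% in WT tumor libraries and 0.0214% and 0.00920% in WT nontumor libraries.

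**Figure D3:**
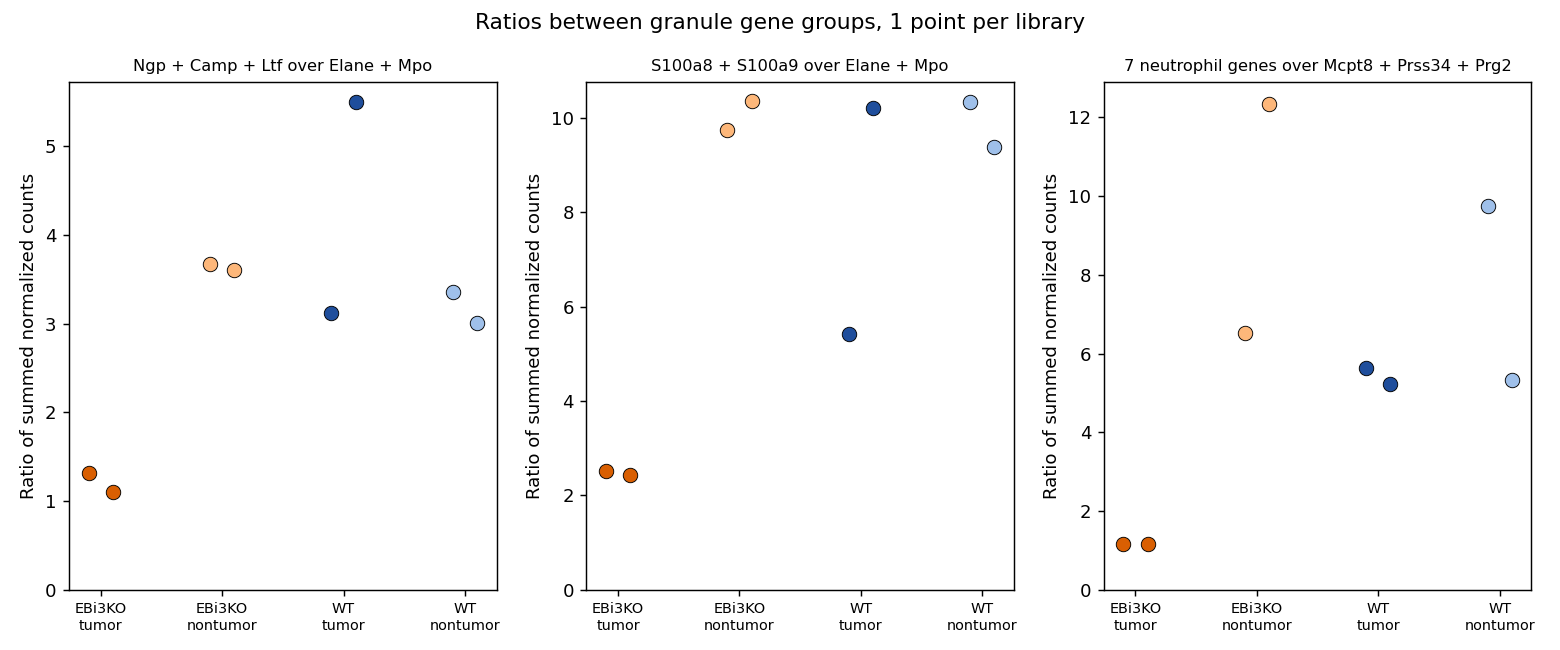
Ratios of summed normalized counts within each library, 1 point per library, for secondary over primary granule genes, S100 genes over primary granule genes, and the 7 neutrophil genes over the 3 basophil and eosinophil genes. In each panel the EBi3KO tumor points, at 1.10 to 1.32, 2.43 to 2.52 and 1.15 to 1.16, are below the other 6.

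Levels between genes were compared per kilobase of the longest annotated transcript. In EBi3KO nontumor libraries S100a8 and S100a9 led at 3003 and 2949 normalized counts per kilobase, followed by Ngp at 413, Camp at 395, Prg2 at 345, Mcpt8 at 128, Ltf at 106, Prss34 and Mpo at 85.2 and 85.1, and Elane at 68.1. In EBi3KO tumor libraries Prg2 came first at 424 per kilobase, close to S100a8 at 403 and S100a9 at 372, with Mcpt8 at 143 and Prss34 at 126 next. Ltf was lowest there at 14.3. In WT tumor libraries S100a8 and S100a9 again led, at 99.2 and 89.9 per kilobase, with Ngp at 20.7 and Prg2 at 20.3.

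The genotypes were also compared on these genes without a tumor. Log2 differences of EBi3KO from WT lay between -0.14 for Prg2 and 0.61 for Ltf (median 0.23, against 0.01 over all tested genes), and the libraries of both genotypes overlapped for 10 of 10. The share of all tested genes that overlapped was not computed, so nothing is read from that count. The percentage of all tested genes called in this comparison was 0.0%, by limma with 1049 genes at an unadjusted p below 0.05; edgeR called 0 with 1016 such genes and DESeq2 called 21 with 654. For the 7 neutrophil genes the spread lies mostly in the WT pair. WT nontumor library 1 exceeded library 2 by 1.81-fold (Elane) to 3.12-fold (Ltf) for the 7 neutrophil genes and by 1.26- to 1.40-fold for the 3 basophil and eosinophil genes. The EBi3KO nontumor pair differed 2.31-fold for Prg2, 1.40-fold for Prss34 and 1.23-fold for Mcpt8. Leaving out either WT nontumor library moved the median to 0.85 or -0.29, so its sign depends on which one is kept.

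Genes of the same pathways outside the 10 were tested: 5 lists of granulocyte genes with 66 entries in the table, of which 49 passed the filter on low values. In EBi3KO libraries 20 of the 49 fell with a tumor and 2 rose, while in WT libraries 39 fell and 5 rose (limma, adjusted p below 0.05; median differences -0.59 and -2.39). Over all tested genes 18.5% were called lower and 14.1% higher in EBi3KO, and 40.1% lower and 39.6% higher in WT libraries, so most genes of any kind were called in WT. Those shares come from the fit with all libraries. With a library left out or the EBi3KO tumor pair averaged, the number called over all genes changed too, as given in the closing section. Counts under those settings, here and in the lists that follow, are therefore not set against those shares. The EBi3KO count of 22 became 6 and 7 without either EBi3KO tumor library and 11 without EBi3KO nontumor library 2. It was 7 with the EBi3KO tumor pair averaged as 1 sample, all of them among the 22: Ccr3, Ear2, Fpr1, Gata1, Il1rl1, Lcn2 and Retnlg. The WT count became 43 of 49. Between genotypes without a tumor 0 of 49 passed, with 6 at an unadjusted p below 0.05. With a tumor 31 were higher and 4 lower in EBi3KO than in WT libraries, against 31.9% higher and 28.6% lower over all tested genes, and 25 and 3 with the EBi3KO tumor pair averaged. The tumor differences of the genotypes themselves differed for 28 of 49, 25 with a higher and 3 with a lower value in EBi3KO, where 27.5% of all tested genes had a higher and 25.4% a lower one. With the pair averaged these were 23 and 3.

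Of 11 tested neutrophil granule and secreted genes, 8 fell with a tumor in EBi3KO (2 with the EBi3KO tumor pair averaged) and 11 in WT libraries. Prtn3, a further protease of primary granules, had 30.4 and 28.4 normalized counts in EBi3KO tumor libraries and 63.9 and 80.2 in EBi3KO nontumor libraries, and fell by 1.26 on the log2 scale (adjusted p = 0.0295, but 0.141 with the tumor pair averaged). Ctsg, cathepsin G of the same granules, differed by -0.57 (adjusted p = 0.33) and Ms4a3, expressed in granulocyte precursors, by -0.92 (adjusted p = 0.187). Lcn2, an iron-scavenging protein of secondary granules, had 15.7 and 12.8 in EBi3KO tumor libraries and 148 and 158 in EBi3KO nontumor libraries, and fell by 3.34 (adjusted p = 0.000662). Retnlg, a resistin-like protein of mature mouse neutrophils, fell by 2.77 (adjusted p = 0.00113). In WT libraries all 5 fell, with -4.75 for Prtn3, -4.28 for Ctsg, -3.87 for Ms4a3, -3.63 for Lcn2 and -2.62 for Retnlg. The WT tumor libraries held 4 and 2 reads of Prtn3, 3 and 1 of Ctsg and 1 each of Ms4a3. The read ratios were 38.7-fold lower for Prtn3 (95% counting interval 17.4 to 107), 31.96-fold for Ctsg (12.02 to 120.1) and 37.4-fold for Ms4a3 (9.81 to 318). The genotypes' tumor differences differed for Prtn3 (3.49 ± 0.50, adjusted p = 0.000829) and Ctsg (3.71 ± 0.62, adjusted p = 0.00154). For Lcn2 that value was 0.29 ± 0.53 (adjusted p = 0.666) and for Retnlg -0.15 ± 0.49 (adjusted p = 0.808).

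By abundance the leading genes of that list were Mgst1, Pglyrp1, Chi3l3 and Hp. Mgst1, a microsomal glutathione transferase, fell by 0.84 in EBi3KO (adjusted p = 0.00861) and fell by 3.03 in WT libraries (adjusted p = 1.07e-06). Pglyrp1, a peptidoglycan-binding granule protein, fell by 0.40 (adjusted p = 0.022) and 1.51 (adjusted p = 3.01e-06). Haptoglobin (Hp) fell by 1.08 in EBi3KO and 2.59 in WT libraries, and the chitinase-like Chi3l3 by 1.14 and 1.71. With the EBi3KO tumor pair averaged, the EBi3KO calls of these 4 genes ended, with adjusted p between 0.0678 (Mgst1) and 0.145 (Chi3l3).

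Of 10 surface and signalling genes of neutrophils, 3 fell in EBi3KO (1 with the pair averaged), and 7 fell and 1 rose in WT libraries. Fpr1, a receptor for bacterial formyl peptides, had 316 and 325 normalized counts in EBi3KO tumor libraries, 517 and 642 in EBi3KO nontumor libraries, 63.5 and 52.7 in WT tumor libraries and 644 and 624 in WT nontumor libraries. It fell in both genotypes, and less in EBi3KO (difference 2.59 ± 0.20, adjusted p = 9.25e-05). Cxcr2, the neutrophil chemokine receptor, went the other way in WT libraries: it had 360 and 496 with a tumor and 91.7 and 37.0 without, and rose by 2.83 (adjusted p = 0.000157), while in EBi3KO libraries it differed by 0.79 (adjusted p = 0.143). Itgam, the integrin chain CD11b, differed by -0.01 in EBi3KO and 0.27 in WT libraries and passed in neither (adjusted p = 0.97 and 0.0783). Csf3r fell by 0.60 in EBi3KO (limma adjusted p = 0.0112, but 0.0911 with the pair averaged) and 0.72 in WT libraries (adjusted p = 0.000601). Its interaction value was 0.13 ± 0.18 (adjusted p = 0.564).

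Of 9 tested regulators, 3 fell and 1 rose in EBi3KO libraries (1 and 0 with the pair averaged), and 7 fell and 2 rose in WT libraries. Cebpa, a factor required to enter the granulocyte lineage, fell by 0.85 in EBi3KO (adjusted p = 0.0187, but 0.106 with the tumor pair averaged) and fell by 2.84 in WT libraries. Gata1, which drives erythroid, megakaryocyte, mast cell and eosinophil genes, fell by 2.93 (adjusted p = 1.45e-05) and 5.25 (adjusted p = 9.64e-08). Gata2, used by basophil and mast cell precursors, had 65.2 and 53.2 normalized counts in EBi3KO tumor libraries, 74.1 and 52.2 in EBi3KO nontumor libraries, 16.7 and 10.2 in WT tumor libraries and 59.2 and 59.0 in WT nontumor libraries. It was thus low in WT tumor libraries and overlapped elsewhere, as Mcpt8 did (difference between the genotypes' tumor differences 2.02 ± 0.42, adjusted p = 0.00437). Gfi1, a repressor with roles in neutrophil maturation and in B cells, rose by 1.01 in EBi3KO (adjusted p = 0.0444, but 0.171 with the pair averaged) and 1.50 in WT libraries. Cebpe, which drives secondary granule genes, averaged 5.13 normalized counts and was not tested.

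Of 9 tested basophil genes 0 passed in EBi3KO libraries by limma, by edgeR or by DESeq2, with 0 at an unadjusted p below 0.05, and 6 fell and 1 rose in WT libraries. Fcer1a, the alpha chain of the high-affinity IgE receptor, had 26.1 and 31.2 normalized counts in EBi3KO tumor libraries, 33.2 and 16.6 in EBi3KO nontumor libraries, 1.59 and 1.57 in WT tumor libraries, which is 2 reads each, and 41.4 and 35.7 in WT nontumor libraries. The WT read ratio was 24.6-fold lower with a tumor (95% counting interval 9.13 to 92.9). Its tumor difference was 0.27 in EBi3KO (adjusted p = 0.624) and -3.93 in WT libraries (adjusted p = 2.54e-05), and these differed by 4.20 ± 0.57 (adjusted p = 0.000679). Cpa3, a carboxypeptidase of basophils and mast cells, and Hdc, which makes histamine, stood at -0.35 and -0.12 in EBi3KO and fell by 3.09 and 1.65 in WT libraries. Ms4a2, the beta chain of the same receptor, rose by 2.24 in WT libraries (74.6 and 99.1 with a tumor, 24.6 and 12.3 without, adjusted p = 0.00525).

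Of 10 tested eosinophil genes, 6 fell and 1 rose in EBi3KO (3 and 0 with the pair averaged), and 8 fell and 1 rose in WT libraries. Epx, the eosinophil peroxidase, had 6.09 and 2.75 normalized counts in EBi3KO tumor libraries and 39.6 and 11.5 in EBi3KO nontumor libraries, and fell by 2.13 (adjusted p = 0.0364, but 0.144 with the tumor pair averaged). Prg3, a homolog of Prg2, had 42.6 and 47.7 in EBi3KO tumor libraries and 40.9 and 49.7 in EBi3KO nontumor libraries, a difference of 0.00 ± 0.38. In WT libraries Epx fell by 2.60 and Prg3 by 2.60. Prg2 and Prg3 thus lay with the basophil genes in EBi3KO tumor libraries and Epx did not. Ccr3, the eotaxin receptor, fell by 1.07 in EBi3KO (adjusted p = 0.00223) and fell by 3.29 in WT libraries. Ear2, an eosinophil ribonuclease with near-identical family members between which reads may be split, stood at -1.23 and -4.03 and passed in both. Il5ra, the IL-5 receptor chain that B-1 cells also carry, rose by 0.56 in EBi3KO (adjusted p = 0.0363, but 0.152 with the pair averaged) and rose in WT libraries, with 1405 and 1643 normalized counts with a tumor and 454 and 317 without (adjusted p = 8.76e-06).

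**Figure D4:**
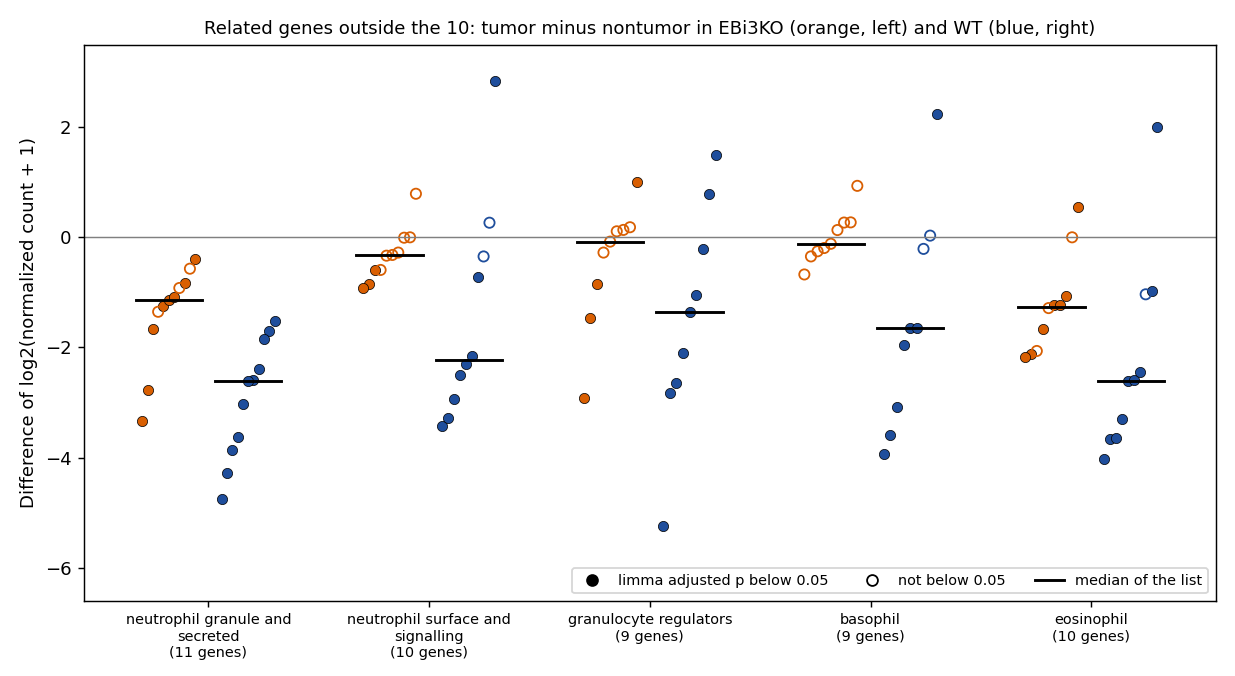
Tumor minus nontumor differences of log2(normalized count + 1) for the 49 tested genes of the 5 related lists, EBi3KO in orange on the left and WT in blue on the right of each list, filled where the limma adjusted p was below 0.05, with a black line at the list median. Basophil genes center near 0 in EBi3KO (median -0.12) and at -1.65 in WT, and neutrophil granule genes at -1.14 in EBi3KO and -2.62 in WT.

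The genes whose profile over the 8 libraries was most like that of the 3 basophil and eosinophil genes (Pearson r on log2 values, as a description) were Gzma at 0.997, Nkg7 at 0.996, Klrk1 and Kdm5d at 0.993, Arhgap9 at 0.993 and Klrb1c at 0.992. Gzma had 1029 and 984 normalized counts in EBi3KO tumor libraries, 1098 and 823 in EBi3KO nontumor libraries, 230.3 and 166 in WT tumor libraries and 1004 and 793 in WT nontumor libraries. For the 7 neutrophil genes they were Ash2l at 0.997, Agtrap at 0.994, Gab1 at 0.993, Limk1 at 0.992, Sirt2 at 0.991 and Slc13a3 at 0.990. Such r values rest on group differences that all 8 libraries share, with depth and scaling in common. Kdm5d, a sex-linked gene, had no reads in either WT tumor library. A high r with the basophil and eosinophil genes can thus come from the gap between that pair and the other libraries alone. In that gap sex and title prefix cannot be told apart from the tumor.

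Markers of other cell types were counted in the same way. Over all tested genes 18.5% were called lower and 14.1% higher in EBi3KO, and 40.1% lower and 39.6% higher in WT libraries. List counts near those shares are not read as a change of that cell type. The shares do not apply to counts with the EBi3KO tumor pair averaged. Of 12 macrophage genes 11 fell in EBi3KO and 12 in WT libraries, at 0.268 to 0.270% of reads in EBi3KO tumor libraries, 0.422 to 0.526% in EBi3KO nontumor libraries, 0.0487 to 0.0551% in WT tumor libraries and 0.467 to 0.510% in WT nontumor libraries. All 11 tested erythroid genes fell in both genotypes, at 0.280 to 0.289% of reads in EBi3KO tumor libraries, 1.03 to 1.53% in EBi3KO nontumor libraries, 0.0739 to 0.106% in WT tumor libraries and 0.594 to 0.649% in WT nontumor libraries. Of 8 platelet genes 0 passed in EBi3KO by limma, edgeR or DESeq2, with 0 at an unadjusted p below 0.05, and 7 fell in WT libraries. Of 8 NK cell genes 1 passed in EBi3KO, as a rise, and 7 fell in WT libraries. Monocytes also express S100a8 and S100a9, and of 5 monocyte genes 1 fell in EBi3KO and 5 in WT libraries, at 0.0262 to 0.0265% of reads in EBi3KO tumor libraries, 0.0183 to 0.0246% in EBi3KO nontumor libraries, 0.00919 to 0.0107% in WT tumor libraries and 0.0214 to 0.0215% in WT nontumor libraries. Of 8 B cell identity genes 2 rose in EBi3KO, and 5 rose and 2 fell in WT libraries. The 2 most abundant of them, the receptor chains Cd79a and Cd79b, fell in normalized counts in WT libraries, by 0.52 and 0.54 (adjusted p = 0.000682 and 0.000693). The list took 1.01 to 1.02% of reads in EBi3KO tumor libraries, 0.835 to 0.893% in EBi3KO nontumor libraries, 1.20% in both WT tumor libraries and 0.757 to 0.790% in WT nontumor libraries. Shares of reads and normalized counts are on different scales. At 27402047 and 27176751 reads in total, 1 read counted 0.794 and 0.786 in WT tumor libraries. At 26065124 and 21762499 reads it counted 1.12 and 1.37 in WT nontumor libraries. The same share of reads thus gave fewer normalized counts in WT tumor libraries. The 2 chains were not compared as shares of reads, so their fall in normalized counts is not read as a loss of these chains. Of 9 T cell genes 1 rose and 1 fell in EBi3KO and 7 fell in WT libraries, and of 8 dendritic cell genes 3 fell in EBi3KO, and 6 fell and 1 rose in WT libraries. Of 6 plasma cell genes 5 rose in EBi3KO, and 2 rose and 2 fell in WT libraries. Of 4 early progenitor genes 0 passed in EBi3KO by any of the 3 tools, with 0 at an unadjusted p below 0.05, and 3 fell in WT libraries. Among mast cell genes 2 of 5 were high enough to test, and of these 0 passed in EBi3KO by any of the 3 tools, with 0 at an unadjusted p below 0.05, while 1 rose and 1 fell in WT libraries. With the EBi3KO tumor pair averaged, the EBi3KO calls became 10 of 12 macrophage, 10 of 11 erythroid and 1 of 6 plasma cell genes. The limma counts of the NK cell, monocyte, T cell, dendritic cell and B cell lists became 0, with 0, 1, 1, 2 and 2 genes at an unadjusted p below 0.05. Apart from up to 3 of the 5 mast cell genes, no marker of these lists was at 0 in both libraries of a group. The part of these cell types in the granule gene differences was not tested.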

How the data were processed

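Salmon, mm10 and DESeq2 are the quantifier, build and normalization tool listed per the submitters' processing notes, with versions and annotation not given in the sources used here. Per the labels, libraries came from a stranded, paired-end mRNA kit. The deposited signal is a normalized count: gene counts that the authors divided by 1 size factor per library. Each library's values were whole multiples of 1 step (100% within 0.01 reads), which gave back reads for edgeR and DESeq2.

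Here limma 3.58.1 (R 4.3.3) was fitted to log2(normalized count + 1) of the 13011 genes averaging at least 10 across libraries, with a trended prior variance, a two-sided test and Benjamini-Hochberg adjustment over all tested genes. The 5 contrasts were tumor in EBi3KO, tumor in WT, genotype without and with a tumor, and their interaction. The residual degrees of freedom were 4. edgeR 4.0.16 and DESeq2 1.42.0 on reads, other scalings, filters, pseudocounts and leaving out libraries were alternatives. Counting intervals are exact binomial at 95% on pooled reads. Fits were tested on simulated data.

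The 10 genes, the 5 granulocyte lists and the 11 lists of other cell types were chosen with earlier results of these data known. Beyond the 10, the rule named the 5 most abundant genes of each granulocyte list, the 2 most abundant of each other list and the 6 most alike genes per group. Prtn3, Ctsg, Ms4a3, Retnlg, Cebpa, Gata2, Gfi1, Cebpe, Fcer1a, Cpa3, Ms4a2, Epx and the sex-linked genes were named after their values were seen. Transcript lengths are from GENCODE vM21, and coordinates and promoters from RefSeq. Ly6g was not analysed here. The spellings Sfpi1 (Spi1), Chi3l3 (Chil3) and Siglec5 (Siglecf) are those of the table.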

Additional observations from a re-analysis of the deposited data

Results flagged for a closer look

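The tumor difference in EBi3KO differed from that in WT by limma's interaction term at an adjusted p below 0.05 for 25 of the named granulocyte genes. Over all tested genes 27.5% had a higher and 25.4% a lower value in EBi3KO by the same rule. Ctsg, Prtn3, Ms4a3, Fcer1a, Cpa3, Gata2 and Cebpa were named after their values were seen, so nothing is read from the count. Values are the tumor difference in EBi3KO minus that in WT on the log2 scale, from 2 libraries per group. The primary granule and precursor genes had Ctsg at 3.71, Prtn3 at 3.49 and Ms4a3 at 2.95. Other neutrophil genes had Fpr2 at 2.96, Fpr1 at 2.59, Mgst1 at 2.20, Hp at 1.51 and Pglyrp1 at 1.12. Basophil genes had Fcer1a at 4.20, Ifitm1 at 2.91, Cpa3 at 2.74, Il3ra at 1.70 and Hdc at 1.53. Eosinophil genes had Ear2 at 2.80, Prg3 at 2.60 and Ccr3 at 2.23. Regulators had Gata1 at 2.32, Gata2 at 2.02, Cebpa at 1.99, Cebpb at 1.54, Sfpi1 at 0.78 and Irf8 at 0.35. Irf8 and Sfpi1 averaged 10863 and 2050 normalized counts over all libraries. Which cells the reads of these regulators came from was not tested. Below 0 were Cxcr2 at -2.04, Runx1 at -0.69 and Il5ra at -1.44, which rose in WT tumor libraries.

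Prss34 drew attention without a test: both EBi3KO tumor libraries lay above both EBi3KO nontumor libraries and both WT tumor libraries lay below both WT nontumor libraries, and the 2 tumor differences were 3.98 apart on the log2 scale. That difference was not tested, since Prss34 was chosen on these values.

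Every value here uses the WT tumor pair, in which sex and title prefix cannot be told apart from the tumor.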

How the results depend on the processing

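Signs of the 10 tumor differences held under all alternatives run, in WT and in EBi3KO, except Prg2 in EBi3KO without EBi3KO nontumor replicate 2 (-0.19). Elane could not be given where a mean of at least 50 normalized counts was required. That filter left 25 of the companion genes called for tumor in WT (44 otherwise) and 21 for genotype with a tumor (35 otherwise), with fewer genes tested. It moved the median of the 10 genes to -2.37 for tumor in EBi3KO (from -1.74), to 2.22 for genotype with a tumor (from 2.80) and to 1.78 for the interaction (from 2.47). A pseudocount of 5 gave 2.25 and 2.01 for genotype with a tumor and the interaction. Leaving out each library in turn gave medians of -4.63 to -3.77 for tumor in WT, -0.29 to 0.85 for genotype without a tumor, 2.26 to 3.09 for genotype with a tumor and 1.95 to 3.12 for the interaction, where Ltf turned to -0.27 without WT nontumor replicate 1. For tumor in EBi3KO it gave 6 to 25 companion genes (22 with all libraries; 6 and 7 without either tumor library, 11 without nontumor replicate 2) and 756 to 5313 of all genes (4242 with all libraries). Averaging the EBi3KO tumor pair, an alternative chosen after seeing the data, gave 7 and 733, and a constant prior variance (no trend) gave 2375 of all genes. Genotype without a tumor gave 21 calls over all genes by DESeq2 and 0 to 5 on leaving out a library. Irf8 reversed for tumor in WT under quantile normalization (0.0018) and with the length and GC trend removed (0.16), and for genotype with a tumor with that trend removed (-0.073). The causes were not tested, except that the stricter filter tests fewer genes.

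WT libraries share title numbers. Over all genes the deviations of same-numbered ones correlated at -0.26, while of the 10 genes number 7 stood above number 8 in 8 with a tumor and 10 without. Nothing in the labels pairs them. With the title number as a replicate block within WT 10158 of all genes were called for tumor in WT (10378 without it), and 10519 with crossed numbers, chosen after seeing the data. For tumor in EBi3KO these were 3104 and 5429.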
